A study of Arabidopsis thaliana with 12 samples.

Results

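The 224 genes described here moved in opposite directions in the single mutants dxo1-2 and xrn3-8 of Arabidopsis thaliana. They were chosen from 36899 nuclear genes, of which 17362 had a mean of at least 2 CPM in Col-0, where CPM is a gene's count per 1000000 counts of nuclear genes in its library. A member had a mean at least 1.5 times that of Col-0 in 1 single mutant and at most 1/1.5 of it in the other, and its libraries of each single mutant did not overlap with those of Col-0. In 134 genes dxo1-2 stood above Col-0 and xrn3-8 below it, and these are called dxo1-2-high. In the other 90 genes, called xrn3-8-high, dxo1-2 stood below and xrn3-8 above. The levels in the single mutants chose the members, so they are given as a description and are not tested.

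Total RNA was sequenced from seedlings 21 days old, grown on soil in long days, of 4 genotypes with 3 libraries each. Col-0 served as the wild type, dxo1-2 and xrn3-8 carry 1 mutation each, and dxo1-2 xrn3-8, called the double mutant here, carries both. The labels give the mutations by allele name, without their nature, the number of plants in a library or the hour of harvest. DXO1 (AT4G17620) is a relative of enzymes that remove incomplete or unusual caps from RNA, and XRN3 (AT1G75660) is an exonuclease of the nucleus that digests uncapped RNA. DXO1 stood at 16.1 to 16.4 CPM in Col-0, against 2.44 to 3.40 in dxo1-2 and 20.0 to 21.1 in xrn3-8, while the double mutant held 6.30 to 6.46. XRN3 stood at 94.0 to 96.5, 112 to 115, 41.7 to 46.7 and 79.6 to 89.1 CPM in the same order, so each targeted gene was lowest in its own single mutant. Libraries held 60138933 to 81494915 gene counts, of which 45.8 to 57.9% came from nuclear genes, with the highest nuclear shares in the double mutant.

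Several of the members take part in processes that follow the day. In the plant circadian clock, proteins made in the morning and proteins made in the evening repress each other's genes, and output regulators pass the rhythm on to flowering, growth and metabolism. CYCLING DOF FACTOR (CDF) proteins repress the flowering regulator CONSTANS, and B-box (BBX) proteins are zinc finger regulators of light responses. Leaves also store sugar in the day and draw on it at night, and genes of sugar and cell wall breakdown are known to be induced in the dark. The MADS-box repressor FLC, which delays flowering until it is silenced by cold, is a further member. The G-box is bound by light-signalling and abscisic acid regulators, and the evening element is bound by morning clock proteins.

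Promoters of 5 members are shown because these genes carry the patterns described below. Each is the 250 bases before the annotated gene start, read on the gene's strand from RefSeq TAIR10.1. Capitals mark the G-box CACGTG or the evening element AAATATCT, on either strand.
PRR9, chr2:19232357-19232606, plus strand: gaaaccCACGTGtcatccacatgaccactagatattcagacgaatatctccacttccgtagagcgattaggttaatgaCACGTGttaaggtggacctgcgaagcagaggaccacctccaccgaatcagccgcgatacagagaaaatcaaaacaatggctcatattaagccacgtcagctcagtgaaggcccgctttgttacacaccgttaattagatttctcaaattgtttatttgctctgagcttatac
RVE1, chr5:5692993-5693242, minus strand: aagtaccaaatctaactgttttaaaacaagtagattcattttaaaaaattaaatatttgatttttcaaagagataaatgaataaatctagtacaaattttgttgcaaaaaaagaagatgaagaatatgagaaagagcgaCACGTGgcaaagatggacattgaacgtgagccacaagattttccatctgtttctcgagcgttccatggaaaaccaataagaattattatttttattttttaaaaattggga
PUB19, chr1:22198016-22198265, plus strand: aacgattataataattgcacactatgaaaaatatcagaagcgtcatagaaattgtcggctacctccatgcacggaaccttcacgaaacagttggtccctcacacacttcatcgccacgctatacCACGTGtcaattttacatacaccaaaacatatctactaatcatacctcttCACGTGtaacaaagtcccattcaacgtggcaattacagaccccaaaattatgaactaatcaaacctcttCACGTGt
CCR1, chr4:18275217-18275466, minus strand: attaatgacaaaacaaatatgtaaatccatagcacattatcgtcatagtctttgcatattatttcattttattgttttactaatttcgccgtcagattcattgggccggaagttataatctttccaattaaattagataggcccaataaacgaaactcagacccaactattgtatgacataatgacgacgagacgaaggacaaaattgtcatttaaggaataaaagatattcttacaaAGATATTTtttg
FLC, chr5:3179449-3179698, minus strand: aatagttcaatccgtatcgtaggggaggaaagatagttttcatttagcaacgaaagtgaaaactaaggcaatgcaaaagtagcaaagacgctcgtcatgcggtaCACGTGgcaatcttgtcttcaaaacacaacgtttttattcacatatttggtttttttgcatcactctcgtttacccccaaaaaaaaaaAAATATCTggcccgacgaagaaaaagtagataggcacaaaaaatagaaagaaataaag
G-boxes lay at -244 and -172 in PRR9, at -111 in RVE1, at -126, -76 and -7 in PUB19 and at -146 in FLC, counted in bases from the gene start. Evening elements lay at -12 in CCR1, on the opposite strand, and at -58 in FLC.

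The G-box occurred in 18 of 134 dxo1-2-high promoters (13.4%) and in 4 of 90 xrn3-8-high promoters (4.44%), beside 7.48% of the 17358 promoters of genes with at least 2 CPM in Col-0. Its dxo1-2-high carriers included the morning clock genes PRR9 and RVE1, the stress regulators NAC032 and ERF15 and the ubiquitin ligase genes PUB18 and PUB19. The evening element was found in 11 of 134 dxo1-2-high and 9 of 90 xrn3-8-high promoters, beside 5.01% of the 17358. The related CCA1-binding site AAAAATCT occurred in 9.70% and 2.22%, beside 6.89%. The abscisic acid response core ACGTGTC, which can overlap a G-box, occurred in 8.96% and 4.44%, beside 4.29%. The W-box, searched as TTGACC or TTGACT, occurred in 25.4% and 36.7%, beside 28.2%, and the site II element TGGGCC was rarer in both classes, at 10.4% in dxo1-2-high genes and 9 of 90 xrn3-8-high genes, than the 17.6% over the 17358. The GCC-box GCCGCC was rare, at 0.746% and 2.22% beside 2.05%. All motifs were searched on both strands, and a match describes the letters of the window only.

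**Figure D1:**
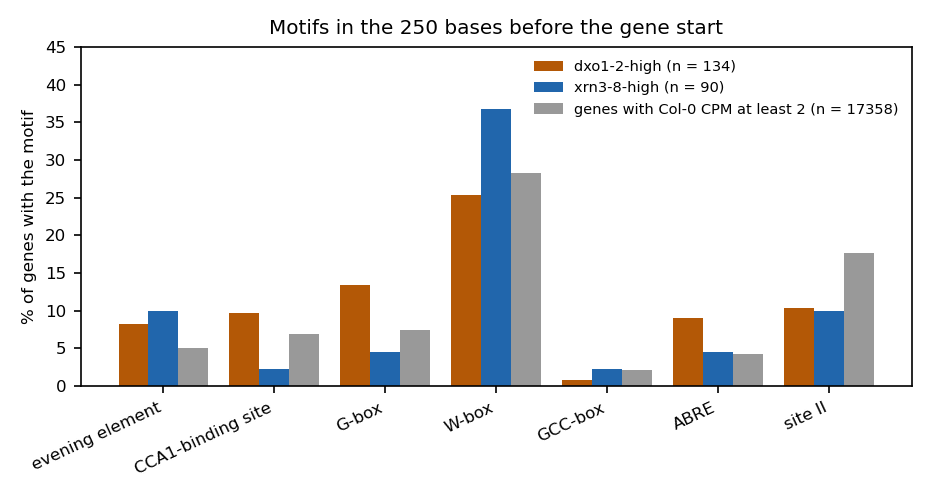
Share of genes, in percent, with each motif in the 250 bases before the gene start, for dxo1-2-high genes, xrn3-8-high genes and all nuclear genes with at least 2 CPM in Col-0. The G-box bar is at 13.4% in dxo1-2-high genes and 4.44% in xrn3-8-high genes, and the W-box bars are the highest in all 3 groups.

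Across the dxo1-2-high genes the median ratio to Col-0 was 1.89 in dxo1-2 and 0.529 in xrn3-8. In the xrn3-8-high genes it was 0.538 in dxo1-2, and the median log2 ratio in xrn3-8 was 0.85. In 22 dxo1-2-high and 15 xrn3-8-high genes both ratios were 2 times or more from Col-0, and in the others at least 1 of them was smaller. Just inside the limit, GBSS1 had ratios of 1.51 in dxo1-2 and 0.642 in xrn3-8, AT1G74070 1.83 and 0.663, and WCRKC1 0.666 and 1.85. AT1G59660 with 0.665 and 1.54, BXL2 with 0.665 and 2.11, and EXPA8, with 0.502 in xrn3-8, were as near. Just outside it lay AT2G46735 with 1.51 and 0.670, ATCSLA09 also with 1.51 and 0.670, and RD19 with 0.668 and 1.82. AT4G10500 with 0.667 and 1.93, BT1, with 0.476 in xrn3-8, and AT3G06435, with 0.618 in dxo1-2, missed it as narrowly.

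**Figure D2:**
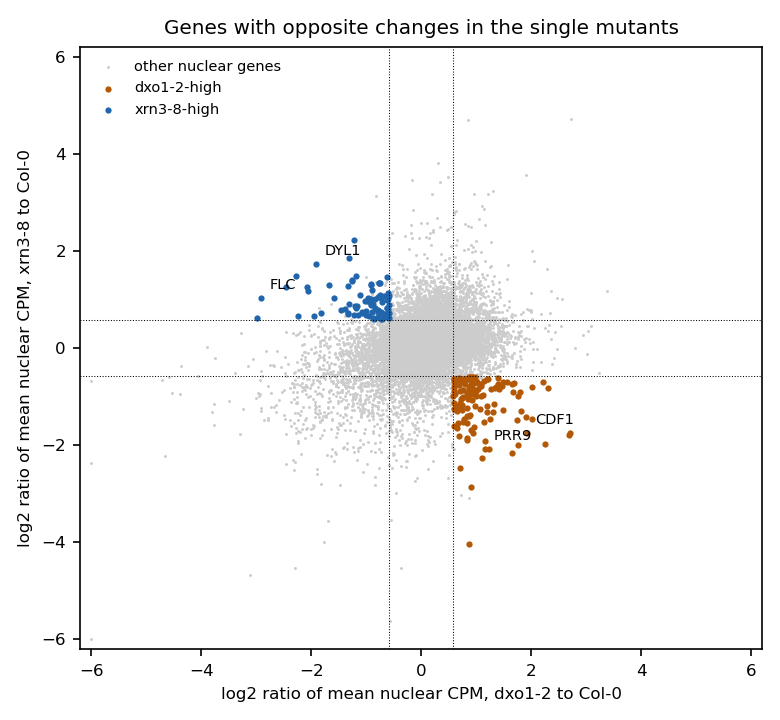
Log2 ratio of mean nuclear CPM to Col-0 in dxo1-2 (horizontal) and xrn3-8 (vertical), for nuclear genes with at least 2 CPM in Col-0 (grey) and members (coloured). Dotted lines mark 1.5 times either way. Members fill the upper left and lower right corners by their choice.

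The scale matters for the number of members. Nuclear CPM ratios lay above edgeR's log2 fold changes, which use TMM scaling over all genes, by a median of 0.08 for dxo1-2, 0.17 for xrn3-8 and 0.18 for the double mutant. With TMM-scaled library sizes the rule found 149 dxo1-2-high genes, of which 104 were among the 134, and 50 xrn3-8-high genes, of which 39 were among the 90. Levels and ratios below are in nuclear CPM, and log2 fold changes of the double mutant are edgeR's.

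Type, level, length and place of the members are described here without a test, and the shares of gene types over the 17362 genes were not computed. The dxo1-2-high class held 133 protein-coding genes and 1 pseudogene, and the xrn3-8-high class held 82 protein-coding genes, 4 long noncoding RNAs and 4 pseudogenes. Median level in Col-0 was 13.6 CPM in dxo1-2-high and 9.55 CPM in xrn3-8-high genes, beside 22.1 CPM over the 17362 genes. Dxo1-2-high genes had a median exonic length of 1368 bases, and 39.6% had a single block of exons. Xrn3-8-high genes had 2004 bases and 24.4%, beside 1836 bases and 14.4% for the 17362 genes. A gene annotated on the opposite strand overlapped 28 dxo1-2-high (20.9%) and 21 xrn3-8-high genes (23.3%), beside 28.5% for the 17362 genes. None of these opposite genes was itself a member. The libraries were stranded, but the sources used here do not say whether reads were counted by strand, so levels of overlapping genes are uncertain. Among the genes named below this holds also for NAC102, ATAF1, NAC1, FADA, UP6, AT4G24700, RLP41, BST1, BCAT-2, AT1G27921 and AT5G66558. Chromosomes 1 to 5 held 33, 23, 29, 24 and 25 dxo1-2-high genes, and 28, 7, 21, 13 and 21 xrn3-8-high genes.

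The double mutant took no part in choosing the members, although the Col-0 libraries it is compared with did. Of the 134 dxo1-2-high genes, all of which were tested, 40 rose and 24 fell in the double mutant against Col-0, and 70 were not called (edgeR quasi-likelihood test, adjusted p under 0.05). Called genes made up 47.8% of the class, beside 46.4% of the 21974 genes tested, so the class was called about as often as genes in general. Rising genes made up 29.9%, beside 24.4% of all genes tested, and falling genes 17.9%, beside 22.0%. Of the 90 xrn3-8-high genes, also all tested, 17 rose, 29 fell and 44 were not called. That is 51.1% called, with 18.9% rising and 32.2% falling, beside the same background. The median log2 fold change was 0.07 in dxo1-2-high and -0.20 in xrn3-8-high genes, beside 0.02 over all genes tested. Without double mutant replicate 3 the dxo1-2-high median was -0.01. XRN3 itself stood in the double mutant nearer to Col-0 than to xrn3-8, by the levels given above.

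On the nuclear scale the split of calls was different. With nuclear totals as library sizes and no TMM, a setting chosen after seeing the data, 49 dxo1-2-high genes rose and 17 fell, and 22 xrn3-8-high genes rose and 20 fell. Of the 21771 genes then tested 49.3% were called, 36.0% higher and 13.3% lower. The median log2 fold changes were 0.24 and -0.02, or 0.04 and -0.22 relative to that of all genes. Of the genes named below, PRR9, PUB29, STP4, RLP35, RLP41 and COW1 were not called lower on that scale, and TPS10, RLP42, CSLD2 and MYB96 were called higher.

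**Figure D3:**
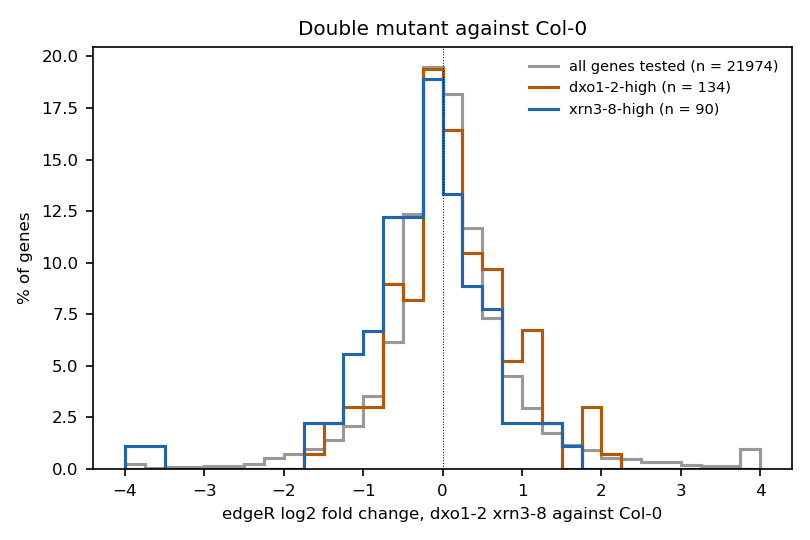
Distribution of edgeR log2 fold changes of the double mutant against Col-0, in percent of genes per bin of 0.25, for all 21974 genes tested, 134 dxo1-2-high genes and 90 xrn3-8-high genes. Values beyond 4 are drawn in the outermost bins. The medians are 0.02, 0.07 and -0.20.

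On the log2 scale the double mutant mean lay between the single mutants in 115 of 134 dxo1-2-high and 76 of 90 xrn3-8-high genes. The single mutants lie on either side of Col-0 by the choice of the members, so a level close to Col-0 lies between them. It was nearest to Col-0 in 76 dxo1-2-high genes, to dxo1-2 in 44 and to xrn3-8 in 14. Among the xrn3-8-high genes it was nearest to Col-0 in 49, to dxo1-2 in 18 and to xrn3-8 in 23. On a line with xrn3-8 at 0 and dxo1-2 at 1, its median position was 0.66 in dxo1-2-high and 0.50 in xrn3-8-high genes, and that of Col-0 was 0.49 and 0.50. The quartiles were 0.44 and 0.85 in the first class and 0.25 and 0.67 in the second. With TMM-scaled library sizes the median position of the double mutant was 0.62 and 0.53. That of Col-0 was not computed on that scale, where the single mutants shift as well. The distance from Col-0 therefore holds for nuclear CPM only. The counts that follow combine 2 scales, since calls are from edgeR with TMM scaling and nearness is by nuclear CPM. On nuclear CPM the log2 ratios of the double mutant lay a median of 0.18 higher, for rising and falling genes alike. Of the 40 dxo1-2-high genes that rose, 35 were nearest to dxo1-2, and of the 24 that fell, 13 were nearest to xrn3-8 and 11 to Col-0. All 17 xrn3-8-high genes that rose were nearest to xrn3-8, and of the 29 that fell, 17 were nearest to dxo1-2 and 12 to Col-0. By the same choice, a gene that rose could hardly be nearest to the single mutant below Col-0. Nor could a gene that fell be nearest to the single mutant above Col-0.

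**Figure D4:**
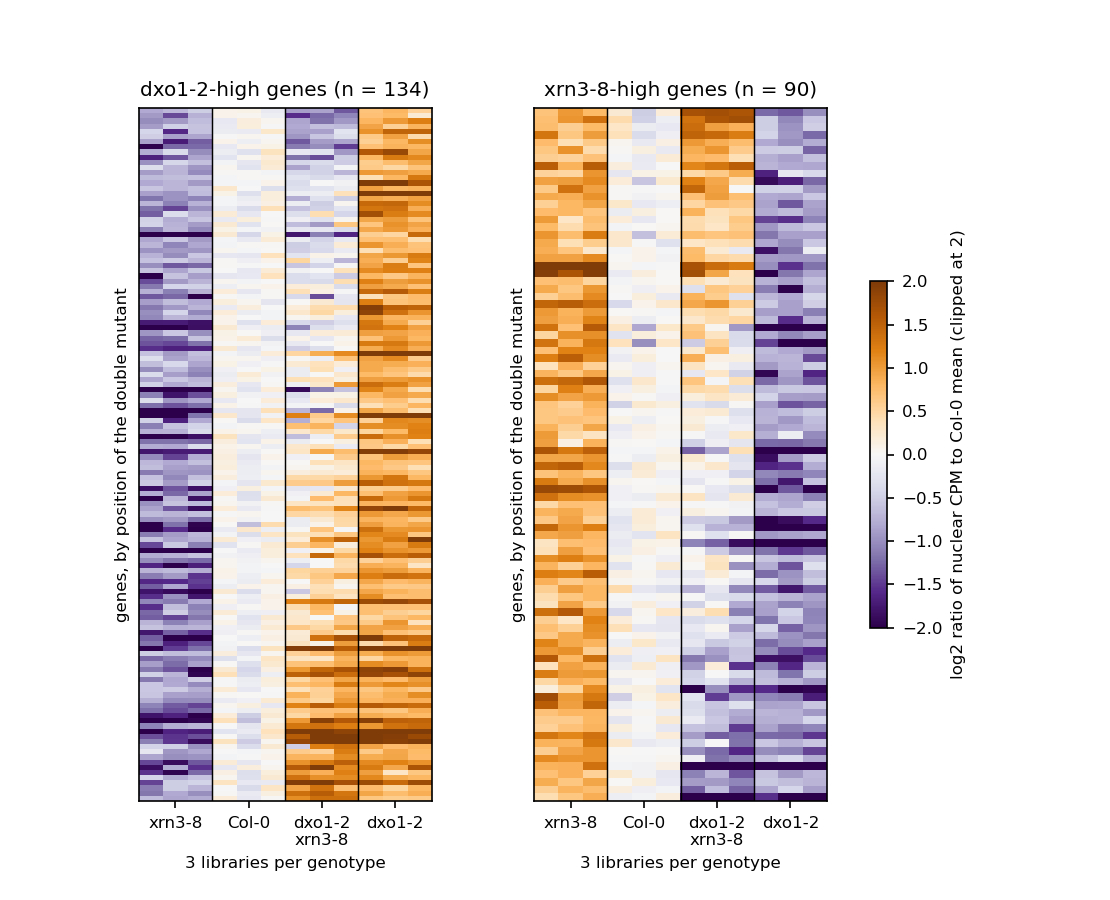
Log2 ratio of nuclear CPM to the Col-0 mean for the 134 dxo1-2-high and 90 xrn3-8-high genes (rows) in 12 libraries (columns, 3 per genotype), clipped at 2 either way. Rows are ordered by where the double mutant lies between xrn3-8 (top) and dxo1-2 (bottom). The single mutant columns have opposite colours by the choice of the genes, and the double mutant columns pass from the colours of xrn3-8 to those of dxo1-2.

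Clock and flowering-time regulators were found in both classes, and the dxo1-2-high ones are described first. CDF1 stood at 24.3, 26.9 and 29.1 CPM in the Col-0 libraries, 95.9, 105 and 105 in dxo1-2, 7.85, 8.07 and 8.14 in xrn3-8, and 33.1, 44.8 and 49.7 in the double mutant. Its 4 genotypes did not overlap, with dxo1-2 highest, then the double mutant, Col-0 and xrn3-8. CDF1 rose in the double mutant with a log2 fold change of 0.49 ± 0.119 (SE, n = 3 libraries per genotype, edgeR adjusted p = 0.00388). Its relative CDF3 stood at 40.4 to 42.9 CPM in Col-0, against 67.0 to 87.6 in dxo1-2 and 20.2 to 26.0 in xrn3-8, while the double mutant held 29.5 to 48.3. The double mutant overlapped with Col-0 there and was not called (log2 fold change -0.37 ± 0.167, edgeR adjusted p = 0.0882), although it was called lower without double mutant replicate 3, at -0.64.

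The morning pseudo-response regulator PRR9 stood at 31.3, 32.2 and 40.6 CPM in Col-0, against 67.3, 79.6 and 87.0 in dxo1-2 and 6.96, 8.08 and 9.72 in xrn3-8, while the double mutant held 16.6, 27.9 and 31.1. Every double mutant library lay below every Col-0 library and above every xrn3-8 library. PRR9 fell in the double mutant, with a log2 fold change of -0.64 ± 0.194 (edgeR adjusted p = 0.0149), a call that was lost without Col-0 replicate 1, at -0.51, and with nuclear totals, at -0.46. RVE1, a MYB-like protein that links the clock to auxin, stood at 20.0, 25.5 and 27.5 CPM in Col-0, against 35.7, 45.2 and 59.8 in dxo1-2 and 6.86, 7.32 and 7.44 in xrn3-8, while the double mutant held 17.3, 18.4 and 19.6. It too fell, with a log2 fold change of -0.57 ± 0.159 (edgeR adjusted p = 0.00876), and the call was lost without Col-0 replicate 3, at -0.46. RVE1 overlaps a gene annotated on the opposite strand, AT5G17305.

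PRR9 and RVE1 were the 2 members among 12 tested morning clock genes. In dxo1-2, 3 of the 12 rose and 3 fell by edgeR, where 42.1% of all genes were called, 21.5% higher and 20.7% lower. In xrn3-8, where 34.4% of all genes were called (16.3% higher and 18.1% lower), 10 of the 12 fell, and in the double mutant 1 rose and 10 fell. The central morning gene CCA1 was no member, since its mean in dxo1-2, 111 CPM, was not 1.5 times that in Col-0, 118 CPM. CCA1 was called lower in xrn3-8 (log2 fold change -2.37 ± 0.127, edgeR adjusted p = 2.9e-08) and was not called in dxo1-2 (-0.16 ± 0.119, adjusted p = 0.287). None of 11 afternoon and evening clock genes was a member. Of these, 7 rose and none fell in dxo1-2, 9 rose and none fell in xrn3-8, and 9 rose and none fell in the double mutant. At an unadjusted p under 0.05 the falling counts were 0, 1 and 0. All 3 comparisons share the Col-0 libraries.

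Of 18 tested clock output regulators 4 were members, CDF1, CDF3 and BBX18 in the dxo1-2-high class and CCR1 in the xrn3-8-high class. In that list 6 genes rose and 2 fell in dxo1-2, 4 rose and 14 fell in xrn3-8, and 6 rose and 9 fell in the double mutant. CCR1 encodes a glycine-rich RNA-binding protein known as a cold- and clock-regulated gene. CCR1 stood at 4.63, 6.39 and 7.27 CPM in Col-0, against 3.34, 4.22 and 4.33 in dxo1-2 and 15.9, 16.7 and 17.8 in xrn3-8, while the double mutant held 8.95, 11.5 and 12.6. Its double mutant libraries lay between those of Col-0 and xrn3-8 without overlap, and CCR1 rose there (log2 fold change 0.67 ± 0.167, edgeR adjusted p = 0.00434). The receptor kinase gene AT4G39270, the next gene on the other side of the CCR1 promoter and transcribed away from it, is an xrn3-8-high gene as well. AT4G39270 stood at 15.2 to 16.6 CPM in Col-0, against 9.02 to 10.9 in dxo1-2 and 29.4 to 33.6 in xrn3-8, while the double mutant held 26.1 to 31.8. It rose there (log2 fold change 0.63 ± 0.0984, adjusted p = 0.000124). It was chosen for mention after its values were seen. Counts of CCR1 can be affected by its close relative GRP7, which was no member, with means of 29.5 ± 5.61 CPM for Col-0, 29.5 ± 2.22 for dxo1-2, 176 ± 22.3 for xrn3-8 and 102 ± 8.66 for the double mutant (SD, n = 3).

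Genes for 4 B-box proteins were dxo1-2-high, and except for BBX18 and BBX29 they were picked out after their values were seen. BBX29 stood at 4.26, 4.53 and 6.37 CPM in Col-0, against 10.7, 11.5 and 13.2 in dxo1-2 and 0.857, 1.29 and 1.43 in xrn3-8, while the double mutant held 3.22, 4.62 and 7.69. BBX16 stood at 17.4 to 21.8 CPM in Col-0, against 39.7 to 44.7 in dxo1-2 and 3.43 to 4.91 in xrn3-8, while the double mutant held 18.3 to 27.1. BBX28 stood at 51.0 to 55.1, 65.6 to 96.4, 11.9 to 17.0 and 39.3 to 71.1 CPM in the same order. In all 3 the double mutant overlapped with Col-0. BBX18 stood at 5.58 to 8.28, 11.8 to 13.3, 1.73 to 2.04 and 4.85 to 9.53 CPM, and overlapped likewise. None of the 4 was called in the double mutant, with log2 fold changes from -0.13 in BBX28 and BBX29 to 0.01 in BBX16 and edgeR adjusted p of 0.613 to 0.976. The B-box family as a whole had 27 tested genes, of which 12 rose and 2 fell in dxo1-2, 9 rose and 13 fell in xrn3-8, and 10 rose and 8 fell in the double mutant.

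**Figure D5:**
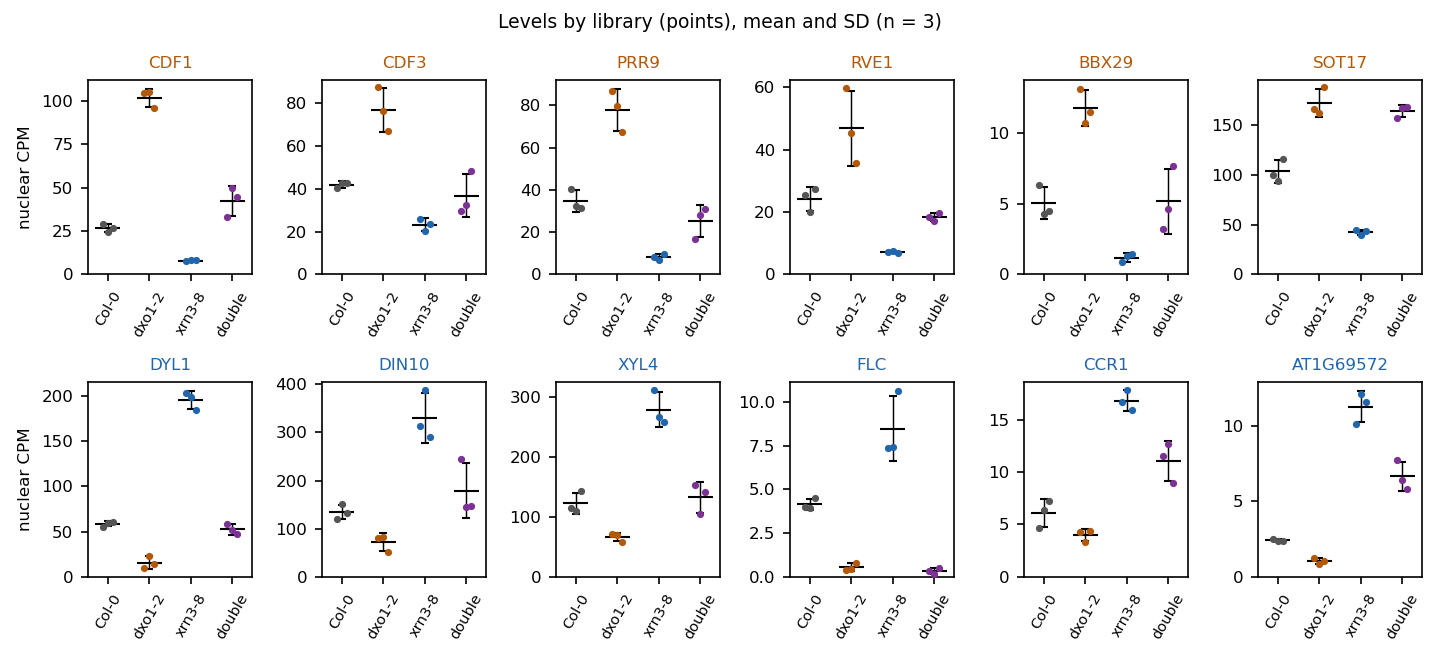
Nuclear CPM of 12 members in each library (points), with the mean (line) and SD (bar, n = 3), for Col-0, dxo1-2, xrn3-8 and the double mutant. Titles in brown mark dxo1-2-high and titles in blue xrn3-8-high genes. The double mutant is near Col-0 for BBX29 and DYL1, near dxo1-2 for SOT17 and FLC, and between Col-0 and xrn3-8 for CCR1 and AT1G69572.

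In 3 genes of aliphatic glucosinolates, the methionine-derived defence compounds of the cabbage family, the double mutant overlapped with dxo1-2 and rose. SOT17, a sulfotransferase of the last step of the core pathway, stood at 94.0, 100 and 116 CPM in Col-0, against 163, 166 and 188 in dxo1-2 and 39.4, 43.5 and 44.5 in xrn3-8, while the double mutant held 158, 168 and 169. The double mutant overlapped with dxo1-2 and lay above all Col-0 libraries, and SOT17 rose (log2 fold change 0.49 ± 0.0885, edgeR adjusted p = 0.000405). SOT18, of the same step, stood at 90.6 to 118 CPM in Col-0, against 177 to 183 in dxo1-2 and 50.1 to 59.6 in xrn3-8, while the double mutant held 144 to 206. SOT18 rose there by 0.56 ± 0.139 (adjusted p = 0.00418). MYB76, an activator of the pathway, stood at 4.66, 5.45 and 6.36 CPM in Col-0, against 11.3, 13.9 and 14.6 in dxo1-2 and 2.61, 3.21 and 3.40 in xrn3-8, while the double mutant held 12.8, 13.6 and 13.9. MYB76 rose by 1.12 ± 0.144 on the log2 scale (edgeR adjusted p = 2.3e-05), again with the double mutant inside the range of dxo1-2.

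These 3 were the members among 19 matched and tested aliphatic glucosinolate genes, and the listed UGT74C1 matched no RefSeq symbol and was not counted. The locus known as UGT74C1, AT2G31790, is a dxo1-2-high gene as well, and it overlaps genes annotated on the opposite strand. Over the list 7 rose and 2 fell in dxo1-2, 1 rose and 16 fell in xrn3-8, and 7 rose and 5 fell in the double mutant. The side-chain oxidation and chain-elongation genes of the list were not members. CYP79B2, which makes the precursor of indole glucosinolates and was chosen after its values were seen, was dxo1-2-high at 146 to 205 CPM in Col-0, against 244 to 305 in dxo1-2 and 64.4 to 78.6 in xrn3-8, while the double mutant held 176 to 279. It was not called in the double mutant (log2 fold change 0.16 ± 0.162, edgeR adjusted p = 0.439). PAL2, the phenylalanine ammonia-lyase that opens phenylpropanoid synthesis, was likewise chosen after its values were seen. Its Col-0 libraries held 215 to 232 CPM, and those of dxo1-2 376 to 423, of xrn3-8 112 to 125 and of the double mutant 390 to 482, so that it overlapped with dxo1-2 and rose by 0.75 ± 0.103 (adjusted p = 3.9e-05).

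Some dxo1-2-high genes are known from stress and abscisic acid responses. ERF6 came from a gene list and the others were chosen after their values were seen, and none of 14 tested cold and abscisic acid protective genes was a member. The ubiquitin ligase PUB19, a repressor of drought responses, stood at 15.3, 20.5 and 21.2 CPM in Col-0, against 85.7, 97.9 and 98.7 in dxo1-2 and 9.75, 10.4 and 12.1 in xrn3-8, while the double mutant held 17.3, 17.4 and 24.5. Thus the nearly 5-fold ratio in dxo1-2 (4.95) was not seen in the double mutant, where PUB19 was not called (log2 fold change -0.12 ± 0.153, edgeR adjusted p = 0.558). Its relative PUB18 stood at 6.58 to 8.34 CPM in Col-0, against 13.2 to 17.7 in dxo1-2 and 3.76 to 4.83 in xrn3-8, while the double mutant held 3.29 to 4.22. PUB18 fell by 1.16 in the double mutant (log2 fold change -1.16 ± 0.164, edgeR adjusted p = 5.5e-05), which overlapped with xrn3-8. PUB29 fell too, with overlapping libraries at 14.8 to 25.1 CPM in Col-0 and 12.7 to 16.0 in the double mutant (-0.61 ± 0.190, adjusted p = 0.0173). These were 3 of 22 tested plant U-box genes, of which 5 rose and 10 fell in dxo1-2, 14 fell in xrn3-8 and 12 fell in the double mutant.

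NCED3, whose enzyme limits abscisic acid synthesis in drought, stood at 12.9, 13.1 and 17.6 CPM in Col-0, against 30.5, 40.4 and 40.5 in dxo1-2 and 4.79, 9.53 and 10.8 in xrn3-8, while the double mutant held 7.97, 8.06 and 12.2. It fell in the double mutant (log2 fold change -0.80 ± 0.257, edgeR adjusted p = 0.0197), within the range of xrn3-8 but for 1 library. The ethylene response factor ERF6 stood at 57.4 to 66.9 CPM in Col-0, against 105 to 118 in dxo1-2 and 17.7 to 28.8 in xrn3-8, while the double mutant held 48.9 to 65.4. ERF6 was not called there (log2 fold change -0.20 ± 0.151, adjusted p = 0.296). ERF6 was the only member among 23 rapid stress regulators, of which 11 rose and 6 fell in dxo1-2, 4 rose and 11 fell in xrn3-8, and 4 rose and 9 fell in the double mutant. Of the NAC factors of the ATAF group, NAC102 rose in the double mutant (0.60 ± 0.135, adjusted p = 0.00229), with 111 to 162 CPM in Col-0 and 219 to 255 there. ATAF1 and NAC032 were not called, at 0.04 ± 0.190 and 0.18 ± 0.203 (adjusted p = 0.875 and 0.491). Of 77 tested NAC genes, 12 rose and 17 fell in dxo1-2, 9 rose and 18 fell in xrn3-8, and 25 rose and 14 fell in the double mutant, and NAC1 was a member of the xrn3-8-high class. AT3G22275, which RefSeq annotates as a jasmonate ZIM-domain protein, had the lowest log2 fold change of the class among called members, -1.64 ± 0.416 (adjusted p = 0.00499). It stood at 4.95 to 7.74 CPM in Col-0, against 9.21 to 17.8 in dxo1-2 and 0.134 to 1.43 in xrn3-8, while the double mutant held 1.95 to 3.06, and AT3G22270 is annotated across it on the other strand.

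Other dxo1-2-high genes had the largest rises in the double mutant. The AP2-type factor ESE3 stood at 5.24, 6.52 and 7.79 CPM in Col-0, against 22.2, 25.1 and 26.1 in dxo1-2 and 2.28, 2.50 and 2.51 in xrn3-8, while the double mutant held 19.2, 26.2 and 32.4. It rose by 1.82 ± 0.183 on the log2 scale (edgeR adjusted p = 2.3e-06). AT3G52740, which RefSeq lists as an uncharacterized protein, stood at 3.71 to 6.73 CPM in Col-0, against 20.0 to 22.7 in dxo1-2 and 1.46 to 2.47 in xrn3-8, while the double mutant held 18.7 to 27.9. The gene rose by 1.93 ± 0.210 (adjusted p = 5.1e-06). In both genes the double mutant spanned the range of dxo1-2. The highest log2 fold change of the class was that of AT1G75945, also uncharacterized in RefSeq, at 2.17 ± 0.247 (adjusted p = 7.3e-06). The cyclin-dependent kinase inhibitor KRP6, chosen after its values were seen, went beyond dxo1-2. KRP6 stood at 9.26, 10.5 and 11.4 CPM in Col-0, against 17.4, 18.9 and 19.8 in dxo1-2 and 4.62, 5.22 and 5.97 in xrn3-8, while the double mutant held 25.8, 26.8 and 30.5. KRP6 rose by 1.24 ± 0.108 (adjusted p = 6.8e-07).

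Several strongly shifted genes carry only a general annotation in RefSeq. AT4G23680, of the polyketide cyclase family, stood at no more than 14.2 CPM in Col-0, against 71.3 to 81.5 in dxo1-2 and 2.52 to 5.24 in xrn3-8, while the double mutant held 17.8 to 27.4. Its ratio in dxo1-2, 6.47, was far above that in the double mutant, 2.00, where it rose (0.83 ± 0.218, edgeR adjusted p = 0.00636). UP6 and AT4G07995, both uncharacterized in RefSeq, rose by 1.15 ± 0.134 and 1.43 ± 0.242 (adjusted p = 8.8e-06 and 0.000257), with the double mutant overlapping with dxo1-2. The fatty acid desaturase FADA rose too (0.71 ± 0.222, adjusted p = 0.0169), although the call was lost without Col-0 replicate 2 and without double mutant replicate 3. AT2G15020 went the other way, at 7.39 to 10.2 CPM in Col-0, against 11.9 to 20.3 in dxo1-2 and 0.134 to 0.923 in xrn3-8, while the double mutant held 2.39 to 5.95, and fell (-1.27 ± 0.347, adjusted p = 0.00806). AT4G24700 and AT3G05936 had rises of 1.91 ± 0.303 and 1.85 ± 0.211 (adjusted p = 0.000146 and 7.6e-06).

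The remaining named dxo1-2-high genes fell or stood near Col-0. The expansin EXPA8, a wall-loosening protein, stood at 14.0 to 16.1 CPM in Col-0, against 17.6 to 26.0 in dxo1-2 and 5.70 to 9.12 in xrn3-8, while the double mutant held 5.14 to 7.32. EXPA8 fell (log2 fold change -1.45 ± 0.196, edgeR adjusted p = 3.5e-05). EXPA8 was the only member among 22 cell wall and expansion genes, of which 8 rose and 7 fell in the double mutant. The methionine sulfoxide reductase MSRB6, which repairs oxidised protein, stood at 44.9 to 55.3, 84.3 to 91.4, 13.2 to 21.6 and 18.5 to 25.6 CPM in Col-0, dxo1-2, xrn3-8 and the double mutant, and fell by 1.37 (-1.37 ± 0.155, adjusted p = 7.2e-06). Its double mutant libraries overlapped with xrn3-8. The auxin repressor IAA1, the only member of 21 auxin response genes, was not called (-0.00 ± 0.140, adjusted p = 0.981). The aquaporins PIP2A and RD28, chosen after their values were seen, were not called either, at -0.04 ± 0.136 and 0.36 ± 0.224 (adjusted p = 0.825 and 0.207). PIP2A stood at 579 to 629 CPM in Col-0, against 881 to 1002 in dxo1-2 and 259 to 303 in xrn3-8, while the double mutant held 562 to 839.

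Genes of sugar use and of the response to darkness were found in the xrn3-8-high class. DYL1, a dormancy-associated gene known to rise when sugar is short, stood at 55.4, 59.5 and 61.0 CPM in Col-0, against 9.41, 14.0 and 23.1 in dxo1-2 and 185, 199 and 204 in xrn3-8, while the double mutant held 46.9, 51.5 and 58.7. The single mutants stood apart from Col-0 on both sides and the double mutant overlapped with it, with no call (log2 fold change -0.34 ± 0.211, edgeR adjusted p = 0.203). DYL1 was called lower when Col-0 and the double mutant were fitted alone (-0.35) or without dxo1-2 replicate 2 (-0.33). DIN10, of the raffinose synthase family, stood at 120, 133 and 150 CPM in Col-0, against 50.7, 81.1 and 83.2 in dxo1-2 and 289, 313 and 387 in xrn3-8, while the double mutant held 146, 147 and 244. A single double mutant library was far above the other two, and DIN10 was not called (0.24 ± 0.211, adjusted p = 0.386).

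XYL4, a beta-xylosidase of the cell wall, stood at 110, 115 and 143 CPM in Col-0, against 58.0, 69.1 and 72.0 in dxo1-2 and 259, 266 and 312 in xrn3-8, while the double mutant held 104, 142 and 153. The trehalose phosphate synthase TPS10 stood at 97.6 to 103 CPM in Col-0, against 55.5 to 66.2 in dxo1-2 and 143 to 169 in xrn3-8, while the double mutant held 117 to 133. In TPS10 all double mutant libraries lay above Col-0 in CPM. Neither gene was called (log2 fold changes -0.06 ± 0.148 and 0.14 ± 0.0875, edgeR adjusted p = 0.766 and 0.209), although TPS10 was called higher with nuclear totals, at 0.32. DIN10, XYL4 and TPS10 were the 3 members among 15 tested dark and sugar starvation genes. Over that list none rose and 11 fell in dxo1-2 (none rose at an unadjusted p under 0.05 either), 5 rose and 5 fell in xrn3-8, and 2 rose and 3 fell in the double mutant. DIN10 and XYL4 each overlap a gene on the opposite strand.

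Further genes of carbohydrate use, apart from PWD chosen after their values were seen, took both directions in the double mutant. PWD, which RefSeq names a phosphoglucan, water dikinase, stood at 15.8, 17.0 and 20.0 CPM in Col-0, against 6.23, 7.35 and 7.45 in dxo1-2 and 39.7, 43.6 and 44.9 in xrn3-8, while the double mutant held 7.16, 7.64 and 9.48. It fell (log2 fold change -1.30 ± 0.131, edgeR adjusted p = 2.6e-06), and the double mutant overlapped with dxo1-2. The sugar transporter STP4 fell too (-0.38 ± 0.102, adjusted p = 0.00752), with 79.9 to 98.4 CPM in Col-0 and 63.5 to 81.4 in the double mutant. The trehalase TRE1 rose (0.70 ± 0.125, adjusted p = 0.000371), from 8.63 to 10.6 CPM in the Col-0 libraries to 16.3 to 19.9 in the double mutant, above both single mutants by its mean. SIP2, named for seed imbibition, was not called (-0.24 ± 0.133, adjusted p = 0.152).

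The floral repressors FLC and MAF4, both MADS-box factors, were xrn3-8-high and were named for their falls in the double mutant. FLC stood at 3.94, 3.96 and 4.50 CPM in Col-0, against 0.386, 0.449 and 0.812 in dxo1-2 and 7.35, 7.44 and 10.6 in xrn3-8, while the double mutant held 0.131, 0.341 and 0.474. The double mutant overlapped with dxo1-2, and FLC had the lowest log2 fold change of the class (-3.87 ± 0.351, edgeR adjusted p = 9.1e-07). MAF4 stood at 7.49, 9.26 and 9.35 CPM in Col-0, against 0.552, 0.963 and 1.77 in dxo1-2 and 10.8, 14.4 and 14.7 in xrn3-8, while the double mutant held 2.40, 3.55 and 4.14. It fell by 1.55 (-1.55 ± 0.269, adjusted p = 0.000313) and stayed above all dxo1-2 libraries. Of 6 tested genes of the FLC clade, 5 fell in dxo1-2, 1 rose in xrn3-8 and 4 fell in the double mutant. None of the 6 was called the other way in these comparisons. FLC overlaps AT5G01675 on the opposite strand, and MAF4 has close relatives beside it in the genome, so their counts are uncertain. AT1G30390, annotated as a pseudogene, followed FLC, at 3.75 to 4.47 CPM in Col-0, against 0.571 to 1.38 in dxo1-2 and 5.41 to 7.36 in xrn3-8, while the double mutant held 0.287 to 0.395 (-3.69 ± 0.322, adjusted p = 6.4e-07).

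Defence-related xrn3-8-high genes differed among themselves. AZI1, a lipid-transfer-like protein of systemic immunity, stood at 9.49, 15.3 and 15.9 CPM in Col-0, against 5.39, 5.71 and 6.83 in dxo1-2 and 21.8, 23.1 and 27.6 in xrn3-8, while the double mutant held 42.1, 43.7 and 44.6. The double mutant lay above all other libraries, and AZI1 had the highest log2 fold change of the class (1.51 ± 0.151, edgeR adjusted p = 2.4e-06). The AP2-type factor DREB2C and the peroxidase PA2 rose as well, by 1.40 ± 0.237 and 1.21 ± 0.246 (adjusted p = 0.000251 and 0.00107). Both were named for these log2 fold changes and not for a part in defence. Of 4 receptor-like proteins in the class, RLP33 was named by its ratios and the others after their values were seen. RLP33 stood at 11.0, 14.3 and 16.0 CPM in Col-0, against 4.44, 4.72 and 8.03 in dxo1-2 and 30.6, 37.8 and 40.0 in xrn3-8, while the double mutant held 11.6, 14.6 and 16.5. It overlapped with Col-0 and was not called (-0.13 ± 0.200, adjusted p = 0.609). RLP35 and RLP41 fell, by 0.59 and 0.44 (-0.59 ± 0.182 and -0.44 ± 0.167, adjusted p = 0.0157 and 0.0425), while RLP42 was not called (0.20 ± 0.0921, adjusted p = 0.0931). Of 53 tested RLP genes, 5 rose and 31 fell in dxo1-2, 14 rose and 11 fell in xrn3-8, and 13 rose and 23 fell in the double mutant. RLP41 and RLP42 are relatives 5 places apart on chromosome 3, and reads could be split between them.

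Other xrn3-8-high genes with large ratios also diverged in the double mutant. BCAT-2, an enzyme of branched-chain amino acid breakdown, stood at 17.5 to 30.8 CPM in Col-0, against 6.98 to 10.9 in dxo1-2 and 50.6 to 56.6 in xrn3-8, while the double mutant held 35.3 to 59.1. It rose (0.70 ± 0.201, edgeR adjusted p = 0.0104), but the call was lost without double mutant replicate 1, at 0.52. AT3G24420, of the alpha/beta-hydrolase family, stood at 23.5 to 29.2 CPM in Col-0, against 5.30 to 14.8 in dxo1-2 and 82.3 to 103 in xrn3-8, while the double mutant held 33.8 to 87.5. It rose (0.94 ± 0.313, adjusted p = 0.0241), with a wide spread among its double mutant libraries, and at 0.49 without double mutant replicate 1 it was no longer called, nor was it without Col-0 replicate 1 or 3. AT1G15125 fell and AT5G62360 was not called (-0.74 ± 0.140 and 0.19 ± 0.179, adjusted p = 0.000624 and 0.397). AT1G76960 fell (-1.67 ± 0.290, adjusted p = 0.000314).

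None of 26 jasmonate, 25 WRKY, 18 salicylic acid and 16 early immune signalling genes matched and tested was a member. The listed JAZ13 matched no RefSeq symbol and was not counted. AT3G22275, the jasmonate ZIM-domain member above, is the locus known as JAZ13, so the match by symbol missed this member. In dxo1-2 14, 19, 16 and 11 of the tested genes of these lists fell, and in xrn3-8 18, 22, 11 and 9. Nor was any of 17 light-harvesting and rubisco small subunit genes a member, although 5 fell in dxo1-2, 15 fell in xrn3-8 and the double mutant had 16 that fell. Of 16 flavonoid genes, none of them a member, 8 rose and none fell in dxo1-2, 6 rose and 2 fell in xrn3-8, and 10 rose and none fell in the double mutant, by edgeR and at an unadjusted p under 0.05 for the falls alike. Lists of sulfur limitation, cold and abscisic acid protective proteins, heat shock and mineral nutrition genes held no member either.

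The noncoding RNA AT1G69572 had the highest xrn3-8 ratio of its class, 4.64. RefSeq annotates it as a natural antisense transcript of AT1G69570, a gene for a Dof-type zinc finger protein. AT1G69570 is the locus known as CDF5, a listed clock output regulator that matched no symbol and was not counted in its list. AT1G69572 stood at 2.36, 2.38 and 2.53 CPM in Col-0, against 0.834, 1.05 and 1.21 in dxo1-2 and 10.1, 11.6 and 12.1 in xrn3-8, while the double mutant held 5.79, 6.40 and 7.70. All 4 genotypes stood apart, and the RNA rose in the double mutant (log2 fold change 1.27 ± 0.163, edgeR adjusted p = 2.1e-05). AT1G69570 itself stood at 17.1 to 24.1 CPM in Col-0, against 26.2 to 38.0 in dxo1-2 and 13.9 to 17.1 in xrn3-8, while the double mutant held 22.6 to 28.3. AT1G69570 rose in dxo1-2 (log2 fold change 0.44 ± 0.150, edgeR adjusted p = 0.0302) and fell in xrn3-8 (-0.62 ± 0.152, adjusted p = 0.00587). It was no member, since its mean ratios did not reach the limits, and in the double mutant it was not called (0.06 ± 0.150, adjusted p = 0.785). Of the other 3 long noncoding RNAs, AT1G27921 fell (-0.64 ± 0.134, adjusted p = 0.00134), and AT5G66558 and AT3G08595 were not called.

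Some xrn3-8-high genes are known from roots and root hairs, and were chosen after their values were seen. FRU, the regulator of iron uptake, stood at 2.01, 2.09 and 2.41 CPM in Col-0, against 1.17, 1.21 and 1.60 in dxo1-2 and 3.23, 3.62 and 3.83 in xrn3-8, while the double mutant held 0.877, 0.895 and 1.38. FRU fell there (log2 fold change -1.22 ± 0.247, edgeR adjusted p = 0.00104). The root hair gene COW1 fell (-0.80 ± 0.245, adjusted p = 0.0149), the root hair gene BST1 rose (0.91 ± 0.214, adjusted p = 0.00309), and the cellulose synthase-like gene CSLD2 was not called (0.27 ± 0.119, adjusted p = 0.0798). The summed level of 9 root markers was 21.0 to 22.5 CPM in Col-0, against 14.9 to 18.2 in dxo1-2 and 22.5 to 26.7 in xrn3-8, while the double mutant held 17.0 to 19.0, with the root hair regulator RHD6 at 0 in all of them. Only 2 of the 9 root markers were tested by edgeR. In dxo1-2 1 fell, in xrn3-8 neither was called, and in the double mutant 1 rose and 1 fell. The part of root tissue in these levels was not tested. In whole seedlings, fewer cells of a type and less RNA per cell cannot be told apart. The sum of 8 flower markers was 2.13 to 3.05, 1.89 to 3.12, 5.33 to 9.28 and 3.00 to 3.63 CPM in the same order, and that of 6 leaf markers 23880 to 26045, 19782 to 23930, 20089 to 25351 and 13347 to 17187 CPM. The flower markers did not move as 1 set in xrn3-8. Of 7 tested there by edgeR, 2 rose and none fell, 1 fell at an unadjusted p under 0.05, and the median log2 fold change was -1.20. The 9 seed markers summed to at most 0.211 CPM but for 1 Col-0 library at 11.1 CPM.

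Of all pairs of members, 13 lay within 5 places of each other in gene order, and 6 of these were of 1 class. Pairs of 1 class included CDF1 with MYB96, a drought-related MYB factor, CCR1 with AT4G39270, and MAF4 with BST1. Pairs across the classes included RLP35 with LBD21, 1 place apart. The number of pairs among as many genes placed at random was not computed.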

How the data were processed

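Whole-number read counts per gene were deposited by the authors for each of 12 libraries, without normalisation. The submitters' processing notes name HISAT2 2.0.4, HTSeq 0.6.0, SAMtools 1.1 and the build TAIR10, and the use of strand in counting is not given in the sources used here. Libraries were made from total RNA with a stranded kit after removal of ribosomal RNA, per the labels' protocols, and the design text says that all genotypes were grown and processed in parallel. The labels name no batch. The summary lines that name no gene took 6.99 to 11.1% of reads for no feature and 9.80 to 11.2% for reads not unique, and stayed out of library sizes and tests. Reads not placed uniquely are not in the gene counts, which lowers genes with near-identical copies. Libraries of 1 genotype differed by 14.6 to 93.7 in chi-square per degree of freedom, so each counted as 1 replicate. The design text calls the replicates biological.

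Levels are CPM, counts per 1000000 nuclear counts, given for each library or as a range or mean ± SD over 3 libraries. The double mutant was tested against Col-0 by the quasi-likelihood test of edgeR 4.0.16 (R 4.3.3) on the deposited counts, using TMM scaling, filterByExpr (minimum count 10, minimum total 15), all 12 libraries in 1 fit and Benjamini-Hochberg adjustment over 21974 genes, and called at an adjusted p under 0.05. The SE of a log2 fold change came from its F statistic. The test was checked on simulated data. DESeq2 1.42.0, other scalings, filters, sample sets, a replicate block and fits without each library were the alternatives, and a fit with nuclear totals and no TMM was added after seeing the data. Libraries with the same number did not deviate together in every pair of genotypes, with correlations from -0.122 to 0.154, so the numbers were not taken to pair the samples.

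The members and the gene lists were chosen with earlier results of these data known. Named were, in each class, the 8 members of at least 5 CPM in Col-0 with the largest changes in both single mutants, the called members at both ends of the log2 fold change in the double mutant, 4 from each, every member in a gene list, the 3 genes nearest each side of the limit, and DXO1 and XRN3. Names, gene types, strands, overlaps, coordinates and promoters came from RefSeq TAIR10.1, to which all 224 members matched, and 13 list symbols that several loci share were assigned to loci by hand. The list symbols RVE6, CDF5, COR28, JAZ13, UGT74C1, UGT75C1, SDI2, HSP70-4 and HSP23.6 matched no entry by symbol and were not counted. The members AT3G22275 (JAZ13) and AT2G31790 (UGT74C1), and AT1G69570 (CDF5), were thus left out of the list counts.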

Additional observations from a re-analysis of the deposited data

How the results depend on the processing

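The number of members depended most on the processing. A limit of 2 times left 22 dxo1-2-high and 15 xrn3-8-high genes, a minimum of 5 CPM in Col-0 left 57 xrn3-8-high genes (108 dxo1-2-high), and TMM-scaled library sizes left 50 xrn3-8-high genes (149 dxo1-2-high). Without a limit on overlap there were 149 and 112, and leaving out each single mutant or Col-0 library gave 130 to 144 and 89 to 114. Total calls in the double mutant were steadier: 58 to 69 dxo1-2-high and 38 to 47 xrn3-8-high genes were called over the fits that left out 1 library, beside 8692 to 10411 of all genes, and 67 and 48 under DESeq2, beside 10606. Their split by direction was less steady. Without double mutant replicate 3, 36 dxo1-2-high genes were called higher and 33 lower, beside 4819 and 4501 of all genes. Without replicate 1 they were 43 and 21, beside 4856 and 4232. A replicate block, for which the numbers give no design basis, called 64 and 43 members, beside 9874 of all genes. Median positions of the double mutant were 0.62 to 0.70 and 0.47 to 0.54 over the fits without 1 library, and with TMM-scaled sizes the genes nearest to dxo1-2 were 35 in place of 44 and 27 in place of 18. With nuclear totals and no TMM, chosen after seeing the data, 2903 of all genes were called lower, and the median log2 fold changes were 0.24 and -0.02. Of 1020 results of 51 named genes over 20 settings, 1001 kept their side of the threshold and direction or were uncalled both ways, 14 lost a call, 5 gained one and none reversed. Beside the changes given with the genes above, GBSS1 lost its call in 5 settings and AT1G74070 gained one in 1. Levels near 0, such as those of FLC in dxo1-2, rest on few reads, and intervals cover the spread between libraries only.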
